A study of Mus musculus with 172 samples.

Results

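Co-chaperones are the proteins that steer the large ATP-driven chaperones. J-proteins (the Dnaj genes) bring unfolded clients to Hsp70 and trigger its ATPase, Bag proteins release the nucleotide so that the client can leave, Fkbp proteins are prolyl isomerases, some of which work with Hsp90, and the Cct genes encode subunits of the chaperonin, the double-ring chamber in which actin and tubulin fold. Many of them are heat shock or unfolded protein response genes, and brain chaperone transcripts are known to rise when animals are kept awake. The genes described here were the DnaJ A, B and C families, the Bag family, the numbered Cct subunits and the Fkbp family. They were matched by gene symbol, without Dnajb1, Dnajb11 and Fkbp5, and were chosen with earlier results of these data known. The 3 genes left out rose in both tissues, as given below. Of 16308 genes listed in either tissue, 65 were members, 62 of the 14896 genes listed in cortex and 64 of the 14107 in liver, with 61 in both. Dnajb3 was listed in cortex alone, and Dnajb13, Dnajc22 and Cct6b in liver alone.

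RNA-seq was made from the cerebral cortex and the liver of adult male mice of the BXD panel, recombinant inbred lines derived from C57BL/6J (B6) and DBA/2J (D2), together with both parents and their reciprocal F1 crosses. The control group (Ctr) was left undisturbed, the sleep-deprived group (SD) was kept awake by gentle handling for the first 6 h of the light phase, and both were killed at Zeitgeber time 6. Each library was 1 pool of RNA from mice of 1 line, tissue and condition, so the spread between mice of a line was not measured. The paper pooled 3 samples for each library except those of BXD79, BXD85 and BXD101, lines with fewer mice. Fewer cells of a type cannot be told apart from less RNA per cell. The comparisons used 39 pools per tissue and condition, 33 BXD/RwwJ lines, 2 pools of each parent and 2 F1 pools. By their labels BXD96, BXD97 and BXD103 carry the line numbers of BXD48, BXD65 and BXD73 with a letter added. They were counted as separate lines. A further 4 BXD/TyJ pools per tissue and condition were kept out of the tests and are given separately. Levels are log2 CPM, the read counts of a library scaled to a common library size, and a change is SD minus Ctr within a pool, given as the mean ± its standard error over the 39 pools, so that a change of 1 is a doubling. Where 3 levels are listed they are the lowest, the median and the highest of the 39 pools.

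Cortex libraries held 18995492 to 28998853 counted reads and liver libraries 4681101 to 8269401. Per kilobase of exon the most abundant members in cortex were Fkbp3, Fkbp1a and Cct6a, with 2542, 2381 and 2062 reads per kilobase in a mean library, and in liver Cct6a, Cct2 and Fkbp2, with 890, 790 and 755. The members had a median of 1539 reads per library in cortex and 560 in liver, and under 20 reads for Dnajb3 and Fkbp11 in cortex and for Dnajb13, Fkbp1b, Dnajc6 and Dnajc27 in liver. In liver no gene exceeded 1.78 reads per exonic base, the level of albumin (Alb), whereas 424 genes in cortex exceeded 2 and the highest reached 43.5; the members reached 0.89 in liver, at Cct6a, and 2.54 in cortex, at Fkbp3. The part of this ceiling in the liver changes was not tested. The Ctr libraries of BXD90 and BXD56 in cortex and the SD libraries of BXD70 and BXD50 in liver lay farthest from the median library of their group, at a mean distance over all genes of 0.29, 0.26, 0.60 and 0.39 log2 CPM against group medians of 0.15 in cortex and 0.27 in liver. Among the liver Ctr libraries DB-F1 and BXD50 were the farthest, at 0.36 and 0.35 against a median of 0.26. In cortex the summed level of 6 neuronal markers was 7848 to 8890 CPM in Ctr and 7631 to 8566 in SD, 3 of them falling and 1 rising; 3 of 4 astrocyte markers rose (936 to 1582 and 999 to 1286 CPM) and 2 of 4 oligodendrocyte markers fell (2142 to 3734 and 2003 to 3742 CPM). In liver 6 hepatocyte markers summed to 2122 to 3543 CPM in Ctr and 2125 to 3199 in SD, 1 of them rising. Choroid plexus markers, 4 of 5 listed, reached 239 CPM in 1 cortex Ctr library and 411 CPM in 1 SD library against medians of 21.2 and 16.3. All 5 B cell markers listed in liver fell, their summed level going from 7.18 to 29.3 CPM in Ctr to 2.76 to 13.7 CPM in SD, and the part of any of these cell types in the results was not tested.

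The promoters of members that rose in both tissues are shown first, because heat shock factor 1 and the unfolded protein response act through short sequences there. RefSeq windows (GRCm38.p6, 250 bases before to 50 after a transcript start) were at hand for 55 of the 65 members. They were searched on both strands for the heat shock pair GAANNTTC and the full heat shock element GAANNTTCNNGAA, which contains that pair. The endoplasmic reticulum stress element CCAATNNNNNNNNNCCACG was searched for as well. Of all 32851 windows, 7.86% held the pair, 0.603% the full element and 0.119% the stress element. Among genes, 7 of 55 members (12.7%) held the pair against 9.04% of all genes, 1 member held the full element and 1 the stress element; of the 7 with the pair, Dnajc27 fell in both tissues. The other pair, TTCNNGAA, which the full element contains as well, was in 6 members (10.9%, against 9.6% of genes). Of these, Cct5, Cct6a, Dnajb4 and Dnajb6 rose in both tissues. Dnajc10 fell in both, and Fkbp7 fell in cortex and was not called in liver. The 160 bases before the start of 4 rising members follow, those with a GAANNTTC pair, full element or stress element upstream of their most upstream start. They run 5′ to 3′ on the gene's strand, with the matched letters in capitals.
Dnaja1 (chr4:40722308-40722467, plus strand, heat shock pair): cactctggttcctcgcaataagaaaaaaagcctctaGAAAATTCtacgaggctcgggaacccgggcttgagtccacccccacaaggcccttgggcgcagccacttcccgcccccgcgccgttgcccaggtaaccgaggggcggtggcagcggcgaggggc
Dnajb6 (chr5:29735738-29735897, plus strand, full heat shock element): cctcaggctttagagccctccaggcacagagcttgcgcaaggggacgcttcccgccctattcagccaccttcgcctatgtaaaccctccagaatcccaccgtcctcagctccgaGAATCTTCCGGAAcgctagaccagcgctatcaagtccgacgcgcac
Fkbp4 (chr6:128438657-128438816, minus strand, heat shock pair): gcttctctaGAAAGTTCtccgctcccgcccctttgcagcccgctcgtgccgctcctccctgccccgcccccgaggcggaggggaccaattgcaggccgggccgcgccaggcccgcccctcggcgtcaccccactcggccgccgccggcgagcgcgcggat
Dnajc3 (chr14:118937772-118937931, plus strand, endoplasmic reticulum stress element): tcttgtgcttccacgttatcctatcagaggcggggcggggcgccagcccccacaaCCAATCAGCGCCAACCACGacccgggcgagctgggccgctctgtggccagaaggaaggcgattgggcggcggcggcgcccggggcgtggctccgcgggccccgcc

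Dnaja4, the member with the largest rise in liver, held the pair in 2 places before its second start, shown with 8 bases on each side, and Bag3 held it 42 bases after its start and Cct2 42 bases before one of its 2 starts. A match is a description of letters and was not tested as a binding site.
Dnaja4, 90 bases before the start (chr9:54699461-54699484, plus strand): acctccgcGAACGTTCtgggccta
Dnaja4, 52 bases before the start (chr9:54699499-54699522, plus strand): tcctggcgGAACCTTCcgccggcg
Bag3 (chr7:128523617-128523632, plus strand): tgggaccaGAAGTTTC
Cct2 (chr10:117063402-117063425, minus strand): caagtgaaGAAGTTTCtagcagga

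To ask how sleep loss changed these transcripts, the paired change was tested by limma over all genes of a tissue, with Benjamini-Hochberg adjustment and an adjusted p under 0.05 as the call. In cortex 51 of 62 members changed (82.3%) where 76.3% of all genes did, so that the share called was close to the background. By direction, 31 rose (50.0%, against 36.6% of all genes) and 20 fell (32.3%, against 39.6%). In liver 47 of 64 members changed (73.4%) where 53.9% of all genes did, 27 of them upward (42.2%, against 26%) and 20 downward (31.2%, against 27.9%). Most changes were small, as they were over all genes. The median change of the members was 0.028 in cortex and 0.034 in liver, against -0.0097 and -0.0015 over all genes. The median size of a change, without regard to sign, was 0.117 against 0.125 in cortex and 0.097 against 0.117 in liver. Of the called members, 13 in cortex and 10 in liver moved by more than 0.25, for which no share over all genes is given.

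In cortex 11 of 62 members, and 11.2% of all genes, changed the same way in all 39 pools; the members were Dnajb5, Dnajc3, Dnajc1, Dnajc21, Fkbp4, Dnaja4, Dnajb4, Cct4 and Cct6a upward and Dnajc30 and Fkbp10 downward. In liver 2 of 64 members, Dnajb2 and Dnajc9, and 2.4% of all genes did so. The pools farthest from the rest recurred: BXD90 lay farthest against the direction for 11 of the 31 rising and 9 of the 20 falling members in cortex, and BXD89 for 8 of the 31, while in liver the F1 pool DB-F1 did so for 9 of the 27 rising members and BXD70 for 8 of the 20 falling ones.

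**Figure D1:**
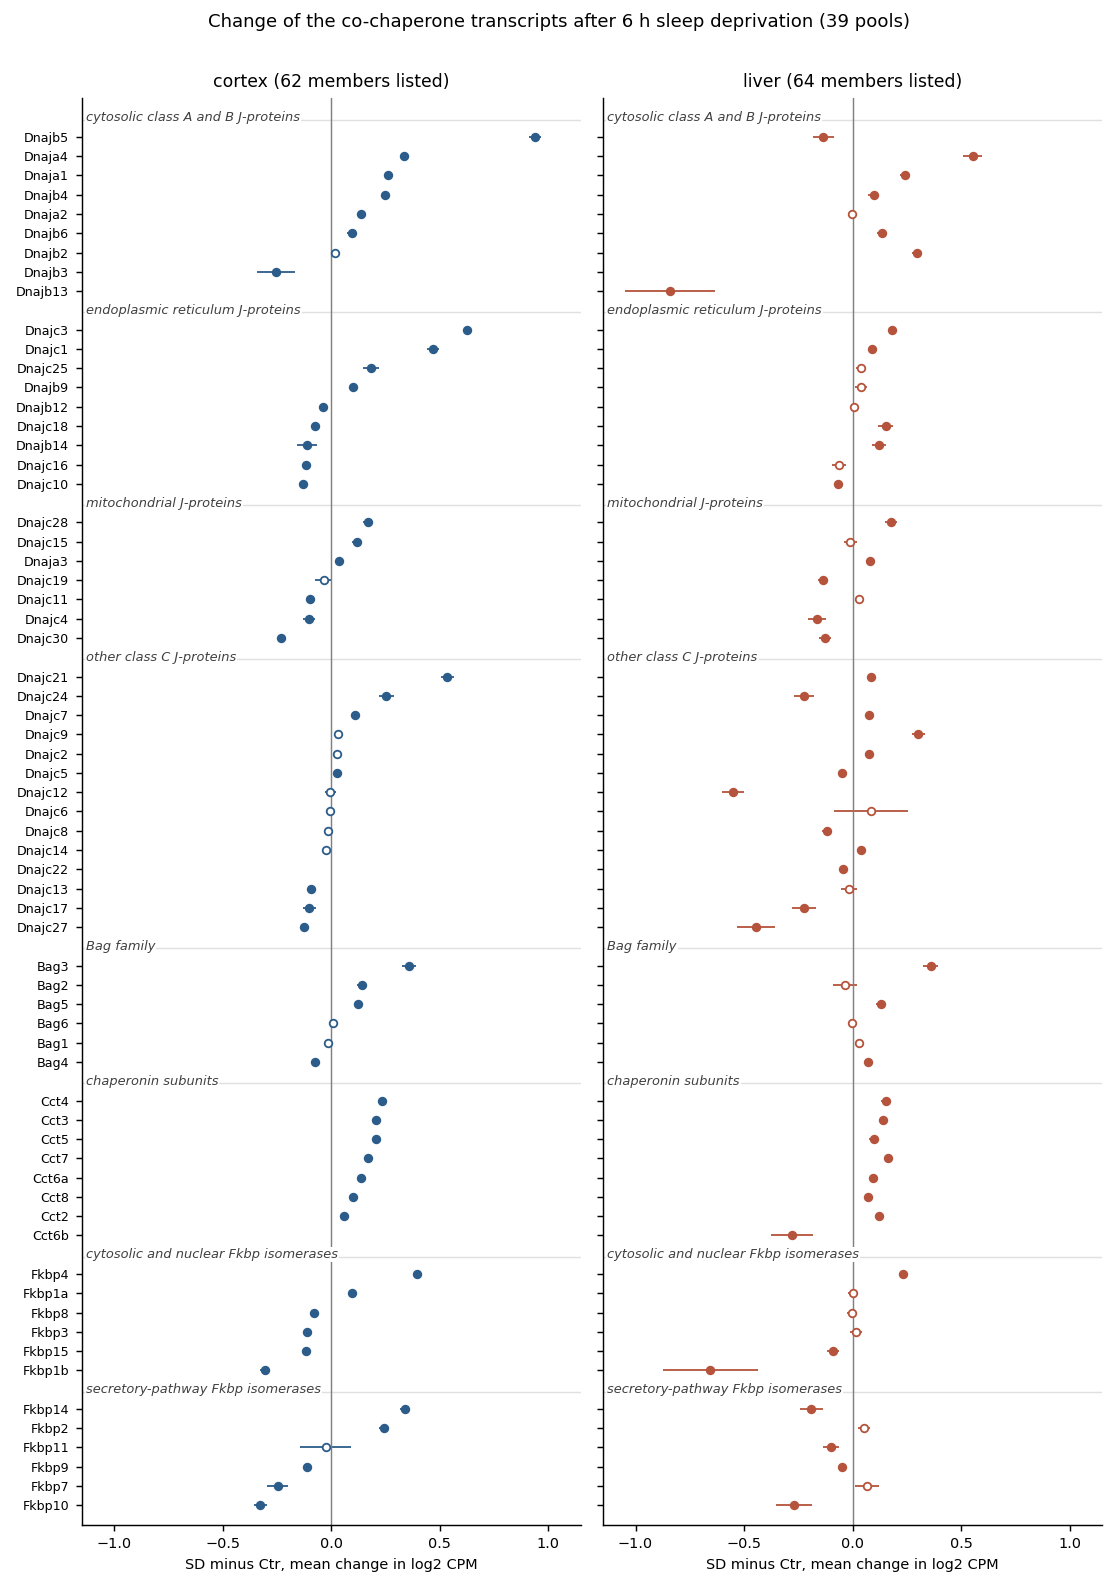
Mean change (SD minus Ctr, log2 CPM, 39 pools, bars are standard errors) of every member in cortex (left) and liver (right), grouped by role; filled points passed the test (adjusted p under 0.05), open points did not, and a missing point means that the gene was not listed in that tissue. The points of the chaperonin subunits lie right of 0 in both tissues except Cct6b, while Dnajb5 reaches 0.94 in cortex and -0.14 in liver.

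The cytosolic J-proteins of classes A and B, the general Hsp70 partners, held the largest rise in each tissue. In cortex 6 of 8 rose, 1 fell and 1 did not pass, with a median change of 0.19; in liver 5 of 8 rose and 2 fell, with a median of 0.12. Dnajb5, a class B relative of Dnajb1 (chr4:42962686-42972297, mm9), had the largest change of all members in cortex. Its lowest, median and highest levels were 6.58, 6.78 and 7.22 log2 CPM in Ctr and 7.51, 7.76 and 8.01 in SD. Every SD pool lay above the highest Ctr pool, and the rise of 0.94 ± 0.027, adjusted p = 1.77e-31, corresponded to 1.92-fold. The smallest rise, 0.29, was that of BXD89, whose Ctr pool was the highest, and the 4 BXD/TyJ pools rose by 0.85 to 1.04. In liver, where it had 87.4 reads per library, Dnajb5 fell by 0.14 (adjusted p = 0.0176), in 26 of 39 pools; among the 33 BXD/RwwJ lines alone that fall did not pass (adjusted p = 0.064).

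Dnaja4, a class A Hsp40 (chr9:54546680-54564122, mm9), was the other cortical member whose groups did not overlap, as was the case for 2 of 62 members and 1.4% of all genes. Its levels were 5.76, 5.92 and 6.05 in Ctr and 6.08, 6.23 and 6.40 in SD, a rise of 0.34 ± 0.013, adjusted p = 3.66e-27. In liver it showed the largest rise of any member, 0.55 ± 0.043, adjusted p = 6.47e-15, from 3.86, 4.92 and 5.64 in Ctr to 4.96, 5.35 and 6.23 in SD, in 37 of 39 pools. There the groups overlapped, with 10 SD pools above the highest Ctr pool, and the lowest Ctr pool was BXD51 and the highest BXD75.

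Dnaja1, which delivers clients to Hsp70, rose by 0.26 ± 0.018 in cortex and 0.24 ± 0.02 in liver, in 38 of 39 pools in each. Dnajb4, another relative of Dnajb1, rose by 0.25 ± 0.016 in all cortical pools and by 0.096 ± 0.024 in liver. Dnajb6, a suppressor of polyglutamine aggregation whose promoter holds the full heat shock element, rose by 0.093 ± 0.02 and 0.13 ± 0.022. Dnaja2 rose in cortex (0.14 ± 0.0098) and was at -0.0038 ± 0.016 in liver (adjusted p = 0.858), whereas Dnajb2, the ubiquitin-binding J-protein of neurons, was at 0.015 ± 0.011 in cortex (adjusted p = 0.218) and rose in liver (0.29 ± 0.021, adjusted p = 2.86e-16). The liver levels of Dnajb2 were 6.87, 6.99 and 7.30 in Ctr and 7.10, 7.29 and 7.69 in SD, higher after SD in every pool although the groups overlapped, 16 SD pools lying above the highest Ctr pool. Both remaining genes were near the detection floor: Dnajb3 in cortex (16.4 reads per library) fell by 0.25 (adjusted p = 0.00925), in 25 of 39 pools, a fall that did not pass after quantile normalization (adjusted p = 0.146), and Dnajb13, an axonemal J-protein, fell by 0.84 in liver (adjusted p = 0.000565) at 2.83 reads per library, so that single reads set its level.

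**Figure D2:**
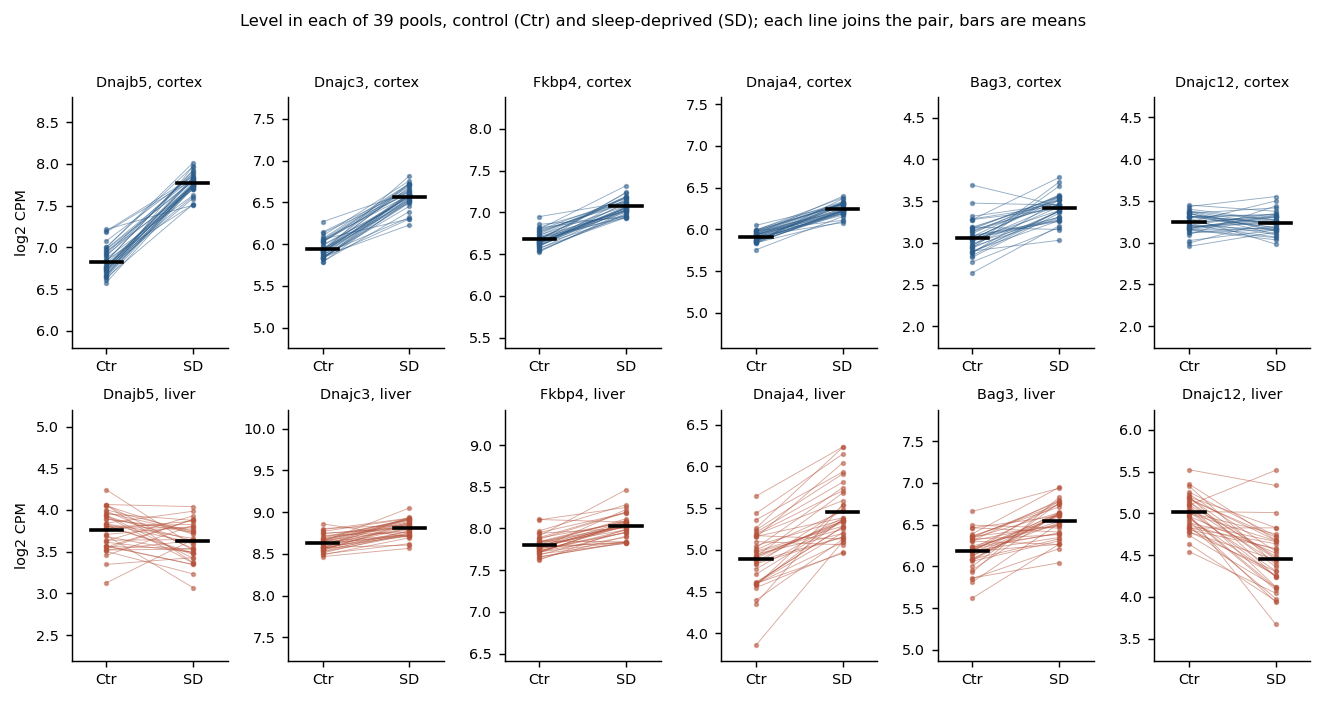
Level (log2 CPM) of 6 members in the 39 Ctr and SD pools of cortex (top) and liver (bottom), each thin line joining the pair of a pool and black bars marking the means; every panel spans 3 log2 units. Dnajb5 and Dnaja4 separate fully in cortex, Bag3 moves alike in both tissues, and Dnajc12 falls in liver from a mean of 5.01 to 4.46 and changes by -0.0036 in cortex.

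Of the J-proteins of the endoplasmic reticulum (ER), 4 of 9 rose and 5 fell in cortex; in liver 4 rose, 1 fell and 4 did not pass. The group holds partners of the lumenal Hsp70 BiP (Hspa5), such as Dnajc3, Dnajb9 and Dnajc10, and membrane proteins such as Dnajb12, Dnajb14 and Dnajc18, whose J domain faces the cytosol; these last 3 were among the 5 that fell. Dnajc3 (p58IPK, chr14:119337154-119380924, mm9), which holds the stress element shown above, went from 5.78, 5.91 and 6.27 in Ctr to 6.23, 6.58 and 6.82 in SD in cortex. All but 1 of the SD pools lay above the highest Ctr pool, a rise of 0.62 ± 0.02, adjusted p = 4.9e-30, or 1.54-fold. In liver, where the levels were 8.47, 8.62 and 8.86 in Ctr and 8.57, 8.81 and 9.05 in SD, the rise was 0.18 ± 0.018, adjusted p = 4.55e-12. Dnajc1 (ERdj1, a membrane J-protein) behaved likewise, rising from 4.40, 4.77 and 5.08 to 5.05, 5.27 and 5.53 in cortex, where 35 SD pools exceeded the highest Ctr pool (0.47 ± 0.026, adjusted p = 2.38e-21), and by 0.089 ± 0.019 in liver. The smaller cortical rises were those of Dnajc25 (0.18 ± 0.037) and Dnajb9, or ERdj4 (0.10 ± 0.015), neither called in liver.

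The 5 ER members that fell in cortex did so by little. Dnajc10 (ERdj5, a lumenal disulfide reductase) fell by 0.13 (SE 0.013, adjusted p = 3.76e-12), in 37 of 39 pools, and Dnajc16 fell by 0.12 in 38 of 39 pools. Dnajc18 and Dnajb14, both in the ER membrane, fell in cortex (-0.073 ± 0.0085 and -0.11 ± 0.046) and rose in liver (0.15 ± 0.035 and 0.12 ± 0.033). For Dnajb14 in cortex BXD90 stood apart, since its Ctr pool stood at 2.69 against a median of 4.33; without BXD56 and BXD90 the change was -0.16 (adjusted p = 2.04e-07), and without pairing the pools the fall did not pass (adjusted p = 0.067).

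Class C J-proteins outside the ER and mitochondria have specialised tasks, and their changes were varied: 4 of 13 rose, 3 fell and 6 did not pass in cortex, and 5 of 14 rose and 7 fell in liver. Dnajc21, which acts in ribosome biogenesis, rose in cortex in every pool, from 5.12, 5.46 and 5.89 in Ctr to 5.80, 5.97 and 6.29 in SD (0.53 ± 0.029, adjusted p = 1.22e-21), 30 SD pools lying above the highest Ctr pool. In liver it rose by 0.087 ± 0.018. Dnajc24, of diphthamide synthesis, rose in cortex (0.25 ± 0.036, adjusted p = 2.54e-08) and fell in liver (-0.23 ± 0.046, adjusted p = 4.49e-05), on 123 and 130 reads per library. Dnajc9, a histone chaperone, was at 0.03 ± 0.018 in cortex (adjusted p = 0.135) but rose in all 39 liver pools, from 3.90, 4.33 and 4.65 to 4.38, 4.62 and 4.85 (0.30 ± 0.029, adjusted p = 3.1e-12). There 17 SD pools stood above the highest Ctr pool.

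Among members with 20 or more reads per library, the largest fall was that of Dnajc12 (chr10:62845191-62871588, mm9) in liver. This co-chaperone serves the aromatic amino acid hydroxylases, among them the phenylalanine hydroxylase of liver. Its levels were 4.54, 5.01 and 5.52 in Ctr and 3.67, 4.45 and 5.52 in SD, and 23 of the 39 SD pools lay below the lowest Ctr pool. The change was -0.55 ± 0.051, adjusted p = 1.21e-12, downward in 37 of 39 pools, with a rise of 0.42 in the second B6 pool. All 4 BXD/TyJ pools fell, by amounts between -0.14 and -1.09. In cortex the change was -0.0036 ± 0.025 (adjusted p = 0.903). Dnajc27, a Rab-like GTPase with a J domain, fell by 0.12 in cortex in 38 of 39 pools and fell by 0.44 in liver, there on 19.4 reads per library. Dnajc17, associated with the spliceosome, fell by 0.10 in cortex and fell by 0.22 in liver; the cortical fall did not pass after quantile normalization (adjusted p = 0.195). The neuronal vesicle proteins hardly moved in cortex: Dnajc5, the cysteine string protein, changed by 0.027 ± 0.011 and Dnajc6, auxilin, by -0.005 ± 0.013 (adjusted p = 0.0231 and 0.739).

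Among the 7 mitochondrial J-proteins, 3 rose and 3 fell in cortex, and 2 rose and 3 fell in liver. Dnajc30 fell in all 39 cortical pools, from 4.72, 4.89 and 5.19 in Ctr to 4.44, 4.67 and 4.90 in SD (-0.23 ± 0.016, adjusted p = 3.47e-17), with 32 SD pools below the lowest Ctr pool, and it fell by 0.13 in liver in 34 of 39 pools. Dnajc28 rose by 0.17 ± 0.022 in cortex and 0.18 ± 0.027 in liver, a difference of 0.0099 ± 0.037, adjusted p = 0.834. Dnaja3, the J-protein of the matrix, rose by 0.033 ± 0.011 and 0.079 ± 0.018, with the reservation that Vasn overlaps it on the same strand. Dnajc19, of the protein import motor, fell in liver (-0.14 ± 0.022) and was at -0.035 ± 0.038 in cortex (adjusted p = 0.398).

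The Bag family, nucleotide exchange factors of Hsp70, was led in both tissues by Bag3, the co-chaperone of chaperone-assisted autophagy (chr7:135667097-135690491, mm9). In cortex its levels were 2.64, 3.05 and 3.69 in Ctr and 3.03, 3.44 and 3.78 in SD, a rise of 0.36 ± 0.032, adjusted p = 7.4e-14. In liver they were 5.62, 6.20 and 6.66 in Ctr and 6.04, 6.60 and 6.95 in SD, a rise of 0.36 ± 0.035, adjusted p = 6.38e-12, so that the liver minus cortex difference was 0.0004 ± 0.04, adjusted p = 0.994. The groups overlapped in both, with 2 cortical and 10 liver SD pools above the highest Ctr pool. The rise was seen in 36 of 39 pools in cortex and 36 in liver, the strongest exception being BXD56 in cortex (-0.25), whose Ctr pool was the highest of all. Bag5 rose by 0.12 ± 0.016 and 0.13 ± 0.024, a liver minus cortex difference of 0.0054 ± 0.028, adjusted p = 0.88. Bag2, which inhibits the ubiquitin ligase Chip, rose in cortex (0.14 ± 0.024) and was at -0.037 ± 0.055 in liver (adjusted p = 0.593). Bag4 fell in cortex (-0.077 ± 0.015, adjusted p = 1.43e-05) and rose in liver (0.071 ± 0.021, adjusted p = 0.00359). Bag1 changed by -0.015 ± 0.016 and 0.031 ± 0.021 and Bag6, the holdase that sorts tail-anchored proteins, by 0.0068 ± 0.0088 and -0.0023 ± 0.017, none passing the test. Bag1 and Bag6 were also the members, with Dnajc6, called in neither tissue, although after quantile normalization both fell in cortex, Bag1 to -0.049 and Bag6 to -0.029 (adjusted p = 0.0107 and 0.00825).

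All 7 chaperonin subunits listed in cortex rose, as did the same 7 in liver, by small amounts that repeated from pool to pool. In cortex Cct4 rose most, from 6.13, 6.26 and 6.57 in Ctr to 6.34, 6.49 and 6.66 in SD (0.23 ± 0.014, adjusted p = 3.74e-20), in every pool, and 9 SD pools lay above the highest Ctr pool. Cct3 (0.21 ± 0.016), Cct5 (0.21 ± 0.014), Cct7 (0.17 ± 0.013), Cct6a (0.14 ± 0.012), Cct8 (0.098 ± 0.012) and Cct2 (0.058 ± 0.0095) followed. The adjusted p-values ran from 3.74e-20 to 4.49e-07. In fold terms the range was 1.04-fold to 1.18-fold. All 7 rose together in 31 of 39 cortical pools, and in BXD90, the pool with the fewest, 3 did. After quantile normalization the rise of Cct2 in cortex did not pass (adjusted p = 0.0975).

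In liver the order was different. Cct7 led with 0.16 ± 0.019, adjusted p = 2.87e-10, going from 7.35, 7.45 and 7.71 to 7.41, 7.62 and 8.05, and was followed by Cct4 (0.15 ± 0.021), Cct3 (0.14 ± 0.016), Cct2 (0.12 ± 0.018), Cct5 (0.097 ± 0.02), Cct6a (0.092 ± 0.019) and Cct8 (0.069 ± 0.018, adjusted p = 0.00124). The subunits were not tested against each other. All 7 rose together in 24 of 39 pools, with 1 rising in BXD83. Cct6b, the second zeta subunit, known from testis, went the other way by -0.28 ± 0.097 (adjusted p = 0.0138) on 26.3 reads per library against 1423 for Cct6a, and fell in 25 of 39 pools; after quantile normalization this did not pass (adjusted p = 0.1). Tcp1, the alpha subunit of the same ring, whose symbol the rule did not match, rose by 0.084 ± 0.011 in cortex and 0.12 ± 0.018 in liver.

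**Figure D3:**
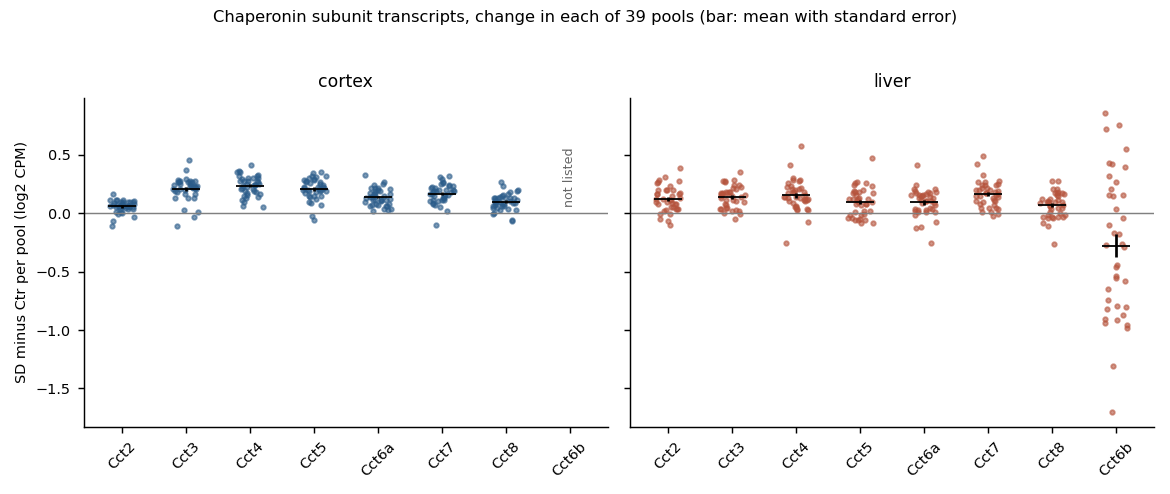
Change (SD minus Ctr, log2 CPM) of each chaperonin subunit in the 39 pools of cortex (left) and liver (right); points are pools and black bars the mean with its standard error. The clouds of Cct2 to Cct8 lie mostly above 0 in both tissues, while the thinly covered Cct6b, not listed in cortex, scatters from -1.70 to 0.86 in liver.

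Of the 6 Fkbp isomerases outside the secretory pathway, 2 rose and 4 fell in cortex, and 1 rose and 2 fell in liver. Fkbp4 (FKBP52, an Hsp90 co-chaperone of steroid receptors, chr6:128379753-128388695, mm9), which carries a heat shock pair before its start, rose in both tissues. In cortex it went from 6.53, 6.66 and 6.95 in Ctr to 6.94, 7.05 and 7.32 in SD, with 35 SD pools above the highest Ctr pool (0.40 ± 0.017, adjusted p = 6.94e-25). In liver it went from 7.62, 7.78 and 8.11 to 7.82, 8.03 and 8.46 (0.23 ± 0.019, adjusted p = 3.81e-14), in 37 of 39 pools. Fkbp1a, the target of FK506 and rapamycin, rose in cortex by 0.095 ± 0.011 and was at -0.00048 ± 0.022 in liver (adjusted p = 0.987). Fkbp1b, its relative that binds ryanodine receptors, fell in cortex from 4.36, 4.64 and 4.83 to 4.07, 4.34 and 4.59 (-0.30 ± 0.022, adjusted p = 5.67e-17), in 38 of 39 pools, with 27 SD pools below the lowest Ctr pool. Its liver value, -0.65 ± 0.22, adjusted p = 0.0103, rests on 3.14 reads per library. Fkbp3, Fkbp8 and Fkbp15 were lower after SD in cortex, at -0.11 ± 0.014, -0.08 ± 0.013 and -0.12 ± 0.013, each passing the test. In liver Fkbp15 fell by 0.091, and Fkbp3 and Fkbp8 were at 0.016 ± 0.027 and -0.0035 ± 0.023, not called.

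Of the 6 Fkbp proteins of the secretory pathway, 2 rose and 3 fell in cortex, whereas in liver 4 fell and the remaining 2 did not pass. Fkbp14 (FKBP22, a collagen chaperone) rose in cortex from 2.87, 3.21 and 3.42 to 3.30, 3.57 and 3.73 (0.34 ± 0.024, adjusted p = 1.83e-17), 33 SD pools lying above the highest Ctr pool, and fell in liver (-0.19 ± 0.052, adjusted p = 0.00199). Fkbp2, or FKBP13, rose in cortex by 0.24 ± 0.023 and was at 0.054 ± 0.027 in liver (adjusted p = 0.0937). Fkbp10 (FKBP65, another collagen chaperone) fell in all 39 cortical pools, from 1.95, 2.51 and 3.08 in Ctr to 1.79, 2.23 and 2.77 in SD (-0.33 ± 0.03, adjusted p = 1.02e-13), and fell by 0.27 in liver (adjusted p = 0.00523), on 31.2 reads per library. The lumenal isomerases Fkbp7 (-0.25 ± 0.049) and Fkbp9 (-0.11 ± 0.012) fell in cortex; in liver Fkbp9 fell by 0.051, and Fkbp7 was at 0.067 ± 0.054 (adjusted p = 0.306).

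Whether the response differed between the tissues was tested on the liver minus cortex difference of the change within each pool, over the genes listed in both. It differed for 37 of 61 members (60.7%) where it did for 57.6% of all genes, a share close to the background. For 15 the change was higher in liver (24.6%, against 28%) and for 22 it was lower (36.1%, against 29.6%). For each of the 6 members with the largest difference the liver change was the lower. Dnajb5 differed by -1.07 ± 0.059, adjusted p = 2.21e-19, and its liver change was the lower in all 39 pools. Dnajc12 (-0.55 ± 0.059, adjusted p = 9.44e-11) fell in liver and was not called in cortex. Fkbp14 (-0.53 ± 0.06, adjusted p = 3.57e-10) and Dnajc24 (-0.48 ± 0.055, adjusted p = 4.69e-10) rose in cortex and fell in liver. Dnajc21 (-0.45 ± 0.035, adjusted p = 1.55e-14) and Dnajc3 (-0.44 ± 0.027, adjusted p = 2.38e-18) rose in both tissues, but more in cortex.

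Of the 61 members, 20 rose in both tissues, 9 fell in both and 7 were called in opposite directions, where 15.3%, 15.5% and 12.9% of the 12695 genes listed in both tissues did so. The 20 that rose in both included the 7 chaperonin subunits, Bag3, Bag5, Fkbp4, Dnaja1, Dnaja3, Dnaja4, Dnajb4 and Dnajb6, and also Dnajc1, Dnajc3, Dnajc7, Dnajc21 and Dnajc28. The 9 that fell in both were Dnajc4, Dnajc10, Dnajc17, Dnajc27, Dnajc30, Fkbp1b, Fkbp9, Fkbp10 and Fkbp15. Opposite calls were those of Dnajb5, Dnajc24, Dnajc5 and Fkbp14, up in cortex and down in liver, and of Bag4, Dnajb14 and Dnajc18, down in cortex and up in liver; the difference itself was called for all 7. Dnajc5 was the weakest of them, at 0.027 and -0.049, and neither change passed without the pairing (adjusted p = 0.248 and 0.0635). A further 7 rose and 7 fell in cortex without a call in liver; the former included Dnajc15 (0.12 ± 0.021), and the latter Dnajb12 (-0.039 ± 0.016), Dnajc11 (-0.099 ± 0.011) and Dnajc13 (-0.093 ± 0.015). In liver alone 4 passed upward, among them Dnajc2 (0.076 ± 0.02) and Dnajc14 (0.04 ± 0.014), and 4 downward, among them Dnajc8 (-0.12 ± 0.022) and Fkbp11 (-0.098 ± 0.037). Changes that were larger in liver included Dnaja4 (0.22 ± 0.046, adjusted p = 8.96e-05), Dnajb2 (0.28 ± 0.021, adjusted p = 2.22e-15) and Dnajc9 (0.27 ± 0.031, adjusted p = 5.76e-10), the last 2 in all 39 pools.

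**Figure D4:**
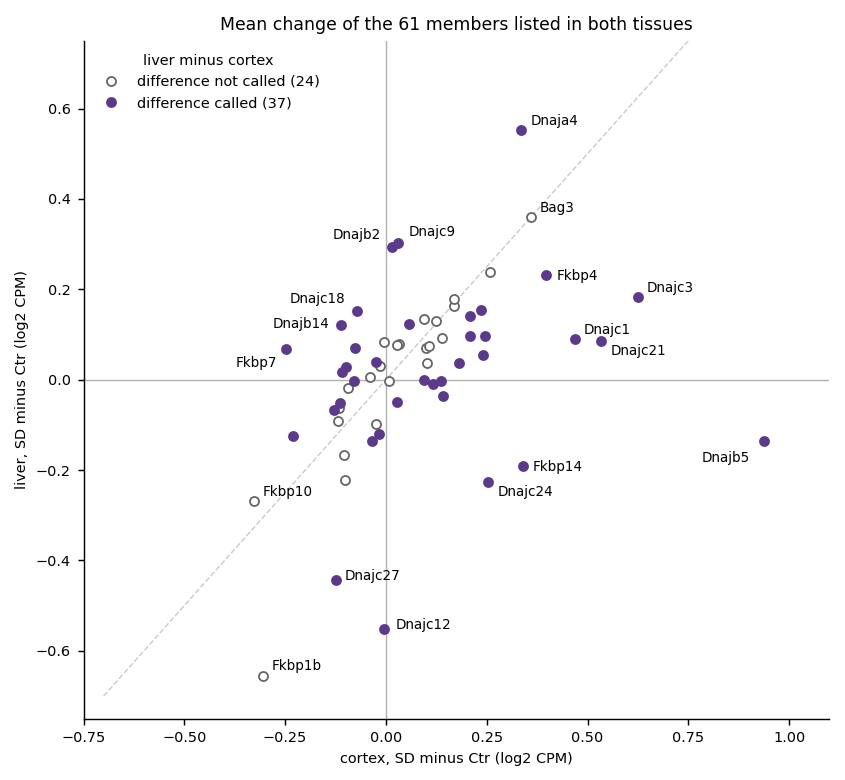
Mean change after SD in liver (vertical) against cortex (horizontal), both SD minus Ctr in log2 CPM, for the 61 members listed in both tissues; the dashed line marks equal change and filled points are the 37 members whose liver minus cortex difference passed the test. Bag3 lies on the line, Dnajb5, Dnajc3 and Dnajc21 far to its right, and Dnajc12 straight below 0.

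The chaperones that these proteins serve, and co-chaperones with other names, were followed as lists drawn up by function. These lists were chosen with earlier results of these data known. Over all genes 36.6% rose and 39.6% fell in cortex, and 26% rose and 27.9% fell in liver. Of 10 Hsp70 and Hsp90 genes, 9 rose and 1 fell in cortex and 8 rose in liver, with median changes of 0.31 and 0.16. The list left out the Hsp70 genes Hspa1a and Hspa1b, which the paper places among its most strongly changed genes in both tissues. Within the list the 3 largest in cortex were Hspa5 (1.32 ± 0.034), the ER partner of Dnajc3 and Dnajc1, Hsph1 (0.83 ± 0.027) and Hsp90b1 (0.72 ± 0.023). In liver Hspa5 and Hsp90b1 rose by 0.12 ± 0.02 and 0.12 ± 0.019, and Hsph1 (1.31 ± 0.042), Hspa4l (0.99 ± 0.045) and Hsp90aa1 (0.63 ± 0.026) led the list. Of 28 other co-chaperones listed, 16 rose and 7 fell in cortex, and 13 rose and 9 fell in liver. Chordc1 (0.76 ± 0.025), Hyou1 (0.72 ± 0.018) and Stip1 (0.56 ± 0.018) led in cortex, and Chordc1 (0.72 ± 0.028), Ahsa2 (0.54 ± 0.02) and Stip1 (0.50 ± 0.022) were among the larger rises in liver. Sil1, a nucleotide exchange factor of BiP, fell in all 39 cortical pools (-0.33 ± 0.024) while BiP rose. The last list of 13 held Cct and prefoldin partners, Hspd1 and Hspe1 of the separate mitochondrial chaperonin, and the Cct clients Actb and Tubb5. Of these 13, 9 rose in cortex and 5 in liver, led by Hspe1 (0.34 ± 0.026 and 0.19 ± 0.025). In cortex Actb and Tubb5 were at 0.0012 ± 0.012 and -0.012 ± 0.012, neither called. In liver Tubb5 rose (0.094 ± 0.024, adjusted p = 0.000742) and Actb fell (-0.063 ± 0.021, adjusted p = 0.00911). Those that fell among these lists were Trap1, Sgtb, Sil1, Tsc1, Pih1d1, Rpap3, Hscb and Gak in cortex and Stub1, Sgta, Sgtb, Grpel1, Ttc4, Rpap3, Sec63, Hscb, Gak and Actb in liver. The 3 relatives kept out of the family rose in both tissues, Dnajb1 by 0.56 ± 0.025 and 0.74 ± 0.036, Dnajb11 by 0.68 ± 0.022 and 0.17 ± 0.018 and Fkbp5 by 0.97 ± 0.054 and 1.30 ± 0.077 in cortex and liver.

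Because every pool belongs to a line, the same libraries show how far the level of each member differs between lines. Ctr and SD mice of a line were paired within cohorts, so an effect shared by a cohort can count as a line difference. An F test over 37 lines, with the Ctr and SD pools of a line as its replicates, called 34 of 62 members in cortex (54.8%, against 55.5% of all genes) and 41 of 64 in liver (64.1%, against 62.1%), in both tissues close to the background. The median standard deviation of the Ctr level between pools was 0.093 against 0.14 in cortex and 0.12 against 0.20 in liver, which does not account for level. Dnajc10 in liver had the smallest adjusted p of any member, 2.67e-15, with the lowest, median and highest of the 33 BXD/RwwJ lines at 6.98, 7.41 and 7.72 log2 CPM in Ctr. Dnaja4 in liver spread more widely, 3.86, 4.92 and 5.64 over the same lines (standard deviation 0.34, adjusted p = 2.48e-07), with BXD51 lowest and BXD75 highest.

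Other called members with a wide spread in liver were Fkbp10 (0.37, adjusted p = 0.0442), Fkbp14 (0.31, 0.0108) and Bag2 (0.25, 0.00527), given as the standard deviation of the Ctr level and its adjusted p. Among the 33 BXD/RwwJ lines alone the spread of Fkbp10 in liver and of Dnajb14 in cortex did not pass (adjusted p = 0.0858 and 0.0681). In cortex they were Dnajb14 (0.31, 0.0297), with BXD90 lowest at 2.69 log2 CPM and a spread of 0.17 (adjusted p = 4.87e-05) without BXD56 and BXD90, Fkbp10 (0.22, 2.23e-06), Bag3 (0.19, 0.0131), Fkbp2 (0.19, 0.000316) and Dnajc17 (0.16, 0.00244). The highest Fkbp2 and Bag3 levels in cortical Ctr were those of BXD90 and BXD56, the 2 libraries farthest from the others.

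A direct comparison of the parents, D2 minus B6 over 4 libraries a strain (2 pools in each condition), called 12 of 62 members in cortex (19.4%, against 25.5% of all genes) and 7 of 64 in liver (10.9%, against 17.9%). Dnaja4 in liver differed most firmly. The 2 B6 pools stood at 4.58 and 4.60 in Ctr and 5.36 and 5.28 in SD, and the 2 D2 pools at 5.44 and 5.26 and 6.14 and 6.23. The strain difference of 0.81 ± 0.081 (adjusted p = 7.95e-06) was larger than the mean change of the gene after SD, and the F1 pools lay between the parents, at 5.18 and 4.86 in Ctr. Dnajc10 in liver was also higher in D2, with B6 at 7.16 and 7.09 and D2 at 7.48 and 7.38 in Ctr (0.36 ± 0.064, adjusted p = 0.0013), and in cortex by 0.16 ± 0.048 (adjusted p = 0.0212), the latter lost without the first B6 pool or either D2 pool.

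The other strain differences were less firm, and none of those that follow but Dnajb5 and Bag5 passed in every fit with 1 pool left out. In liver Dnajc12 was lower in D2 (-0.64 ± 0.19, adjusted p = 0.0306). Its 2 SD pools stood at 3.94 and 4.11 in D2 against 4.71 and 5.52 in B6. The 5.52 was the second B6 pool, which rose after SD, and without that pool the difference was -0.46. Dnajc16 and Dnajc19 in liver were higher in D2 by 0.26 ± 0.083 and 0.24 ± 0.069. In cortex Dnajb5, Bag5 and Dnajc21 were lower in D2 (-0.24, -0.21 and -0.20, adjusted p = 0.000801, 0.00246 and 0.0133), and Fkbp11 was higher (1.04 ± 0.32) on 12.7 reads per library. With 1 parental pool left out at a time, the number of members called ranged from 2 to 10 in cortex, the lowest without the first D2 pool and 6 without the second, and from 3 to 4 in liver, whichever pool was left out. Of the 12 cortical members 6 were higher in D2 (50%), a share that became 64.3% with each library centred on its median.

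**Figure D5:**
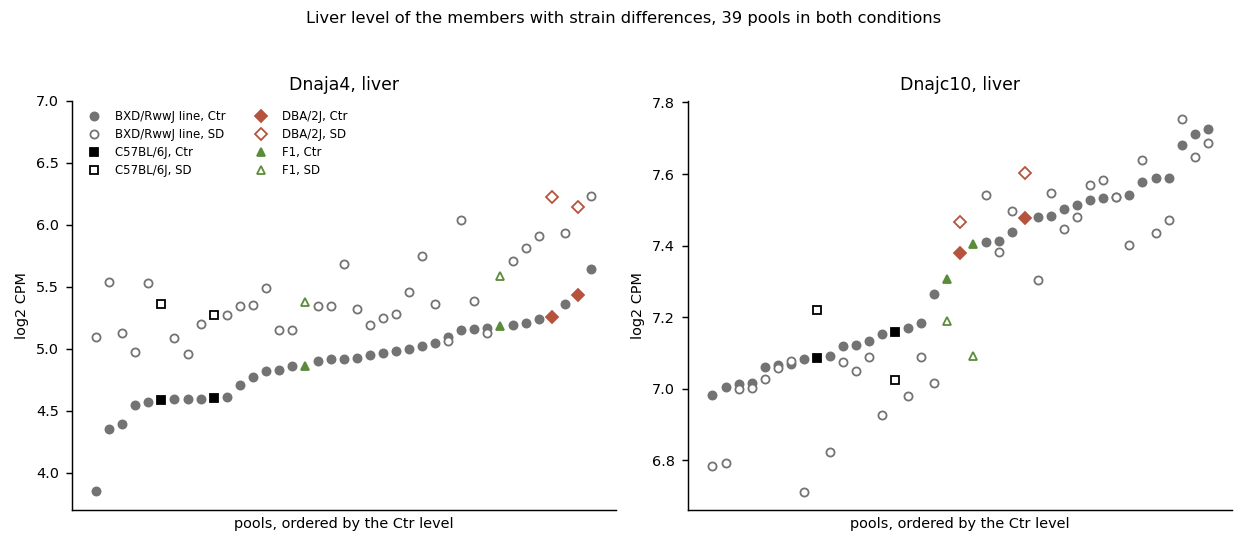
Liver levels (log2 CPM) of Dnaja4 and Dnajc10 in the 39 pools, ordered by the Ctr level, with filled symbols for Ctr and open symbols for SD. For both genes the D2 pools (diamonds) lie above the B6 pools (squares) in each condition; most Dnaja4 SD symbols lie above their Ctr symbol.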

How the data were processed

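RNA-seq libraries (stranded mRNA, single-end reads) were made by the authors from pooled RNA of mice of each line, aligned with STAR to mm9 and counted per RefSeq gene and strand with htseq-count; genes with low mean counts were removed. The values deposited are log2 CPM, made by the authors with edgeR's TMM scaling, in 1 table per tissue and condition; the versions of STAR, htseq-count and edgeR are not given in the sources used here. Whole reads could be recovered for 100% of values (within 0.02 of a read), which gave the depths and the prior count of about 1 read. Members were matched by symbol, and the members, role groups and lists were chosen with earlier results of these data known. SD minus Ctr was formed within each pool, that is with the line as a replicate block, and tested with limma 3.58.1 (R 4.3.3; moderated statistics with a variance trend; Benjamini-Hochberg over all genes of a tissue; adjusted p under 0.05). Pairing came from the labels and the study's cohorts, and the 2 conditions of a line deviated together, with a median correlation of 0.614 in cortex and 0.475 in liver and a lowest of 0.299 and 0.169. P-values measure the spread between pools. The liver minus cortex difference, an F test over 37 lines and D2 minus B6 (condition as a term) were fitted likewise. As an alternative, voom on the recovered reads with the block called 11383 of 14896 genes in cortex and 7724 of 14107 in liver, against 11359 and 7603. Other alternatives changed the scaling, filter, variance trend, prior count and pools. The fits were also run on data simulated with independent normal noise for each gene. Those data held no outlying libraries and no read ceiling, and the outcome is not given here. Members were named with full values by rank of change, tissue difference and strain or line difference, with the Bag and Cct families whole; those named beyond that within a role group were chosen after their values were seen. Gene positions are from a GENCODE annotation of mm9, and promoter windows are RefSeq's on GRCm38.p6, a different build, used for sequence only.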

Additional observations from a re-analysis of the deposited data

Results flagged for a closer look

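The response to SD differed between liver and cortex, by the test of the paired difference itself, for 37 members. Those picked out by size or by opposite calls were Dnajb5 (-1.07 log2 units, liver minus cortex), Dnajc12 (-0.55), Fkbp14 (-0.53), Dnajc24 (-0.48), Dnajc21 (-0.45), Dnajc3 (-0.44) and Dnajc5 (-0.076), lower in liver, and Bag4 (0.15), Dnajc18 (0.23) and Dnajb14 (0.23), higher in liver. The ceiling on reads per base in liver was given with the libraries, and its part in these differences was not tested. Among the named parental comparisons, 1 of the 4 libraries of a strain lay apart from the other 3 for Bag5 in cortex of C57BL/6J (5.47 log2 CPM) and for Fkbp11 in cortex of DBA/2J (-0.79 log2 CPM), on Dixon's test. It flags about 1 in 20 groups of like values by chance. Here Ctr and SD libraries were mixed, so that rate may not hold.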

How the results depend on the processing

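Over the alternatives the number of members called after SD was 49 to 52 in cortex and 42 to 47 in liver, that for liver minus cortex 33 to 41, and that for line differences 30 to 38 and 36 to 45. Without the replicate block that pairs the 2 conditions of a line, 49 members in cortex (Dnajb14 and Dnajc5 lost) and 42 in liver (Dnajc2, Dnajc5, Dnajc10, Fkbp9 and Fkbp11 lost) passed, and 33 for the tissue difference. Pools that stood apart, BXD56 and BXD90 in cortex and BXD50 and BXD70 in liver, were left out after seeing the data. That gave 52 for the SD change in cortex, 46 for the SD change in liver and 41 for the tissue difference. DB-F1 was kept. The parental counts moved most: 12 members in cortex became 4 and 7 in liver 4 without a variance trend, 17 and 7 with sampling time as a replicate block, and 2 to 10 and 3 to 4 with 1 pool left out. After quantile normalization Bag6 in cortex turned to -0.029 (adjusted p = 0.00825) and Dnajc5 to -0.0093 (adjusted p = 0.337); the cause was not tested. Of the values of single named members, 2318 kept their direction and call, 82 lost the call, 37 gained one and those 2 reversed. Depth limits liver most, where 4 members had under 20 reads per library, and a pool gives no spread between mice.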

Other observations

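In liver the level of Dnajc10, the ER reductase ERdj5, parted the 33 BXD/RwwJ lines. Ordered by level in Ctr, 16 lines reached up to 7.26 log2 CPM and 17 stood at 7.41 or more, a gap of 0.15 where neighbouring lines were a median of 0.013 apart. In the separate SD pools the widest gap, 0.21, lay between 7.09 and 7.30, and the same 16 lines were below it. The B6 Ctr pools stood at 7.16 and 7.09, the D2 Ctr pools at 7.48 and 7.38 and the F1 Ctr pools at 7.31 and 7.40; both F1 pools and the second D2 pool lay inside the gap. The gene was looked at in this way after its values were seen, and no genotypes were used here. The Dnaja4 levels in liver showed no such division, the widest gap in Ctr setting off 1 line, BXD51.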
